A study of Bos taurus with 23 samples.

Results

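A set of 4 genes, of the 16094 Ensembl gene IDs counted, was present in every group of primary bovine umbilical cord cells and low or nearly absent in a line made from such cells. The genes were chosen from the counts by group means in CPM, a gene's counts per 1000000 counts of its library: at least 5 CPM in each of 3 groups of primary cells and under 1 CPM at both ages of the line. These means chose the genes, so the gap between line and primary cells is a description here and carries no test. The IDs are ENSBTAG00000009979, ENSBTAG00000016473, ENSBTAG00000025942 and ENSBTAG00000054228. None of them, nor any other ID of the table, could be paired with a gene symbol, so no function and no genome position is given and no sequence is shown.

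RNA was measured in 23 libraries of mesenchymal stem cells from the umbilical cord of Holstein cattle, by bulk MARS-Seq, a method that counts 3′ tags of poly(A) RNA. The line, labelled Immortalized SV-40, was sampled after 165 days of culture (5 libraries, named 2D) and after 21 days of it (9 libraries, 5 named AM and 4 named FBS). Primary cells, labelled untreated, were sampled after 50 days (3 libraries named WJ and 3 named BUC) and after 12 days (3 libraries, of which 2 were named WJ and 1 BUC). The 2D, AM and FBS libraries thus come from 1 line. According to the design text it was started from primary WJ cells, in which large T antigen of SV40 was expressed transiently, and from expanded colonies. The medium for all cells was DMEM low in glucose, with fetal bovine serum. It is not said whether the line is a single clone, nor what the tags, the P numbers of the primary libraries and the endings Mix, Male and F in 3 of their names stand for. Separate cultures or animals are not marked either, so the spread behind the p-values is that between libraries and may be technical.

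Mesenchymal stem cells of the umbilical cord are adherent stromal cells that grow for a limited time in culture and can be turned towards bone, cartilage or fat. The large T antigen binds p53 and the retinoblastoma protein, which hold back cell division, and cells that express it can escape the normal limit on growth. A 3′ tag method reads the end of each transcript, so its counts do not grow with transcript length. In bulk RNA, fewer cells that express a gene and less of its RNA per cell cannot be told apart.

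Library totals in the line ran from 3753231 to 13540302 counts at 165 days and from 4141228 to 11382368 at 21 days, against 1840606 to 3980920 in WJ and 3743953 to 5920394 in BUC cells at 50 days, and 8954270 to 15486372 at 12 days. Within the line the libraries fell into sets at both ages. On the first axis of log2 CPM, computed without the 4 genes, AM-1, AM-2, AM-3, FBS-1 and FBS-3 scored 20 to 22.8 and AM-4, AM-5, FBS-2 and FBS-4 scored -29.9 to -23.7, and this axis held 58.2% of the variance at 21 days. At 165 days 2D-1 and 2D-2 scored 26.3 and 36.6, and the other 3 libraries -24.1 to -19.1, on an axis with 80% of the variance. Marker genes of the tissue could not be checked, since none could be identified.

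Loss from the line on this scale was rare. Of the 7122 genes at 5 CPM or more in all 3 groups of primary cells, 15 were under 1 CPM in the line at 165 days and 7 at 21 days, and the 4 genes described here were under it at both ages. The mirror pattern, at least 5 CPM at both ages of the line and under 1 CPM in every primary group, was met by 30 genes. Among the 7122 genes the higher of the 2 line means was, at the median, 180% of the lowest primary mean. Spread between groups alone raises a share of a highest over a lowest mean, so 180% is not the size of a typical rise. The share was 1.01% for ENSBTAG00000009979, the lowest of all, 6.23% for ENSBTAG00000054228, 7.70% for ENSBTAG00000025942 and 12.1% for ENSBTAG00000016473. These genes held ranks 1, 4, 6 and 10 from the bottom. The size of the set depends on the thresholds. With a ceiling of 2 CPM in the line, 12 of the 7122 genes were under it at both ages. A further 19 genes, under 1 CPM at both ages, reached 5 CPM in exactly 2 primary groups. The smallest primary group mean inside the set was 6.97 CPM, and the nearest genes outside, low enough in the line, had 4.31, 3.87 and 3.70 CPM. The highest line mean inside it was 0.897 CPM, and the nearest genes outside had 1.28, 1.39 and 1.52 CPM.

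**Figure D1:**
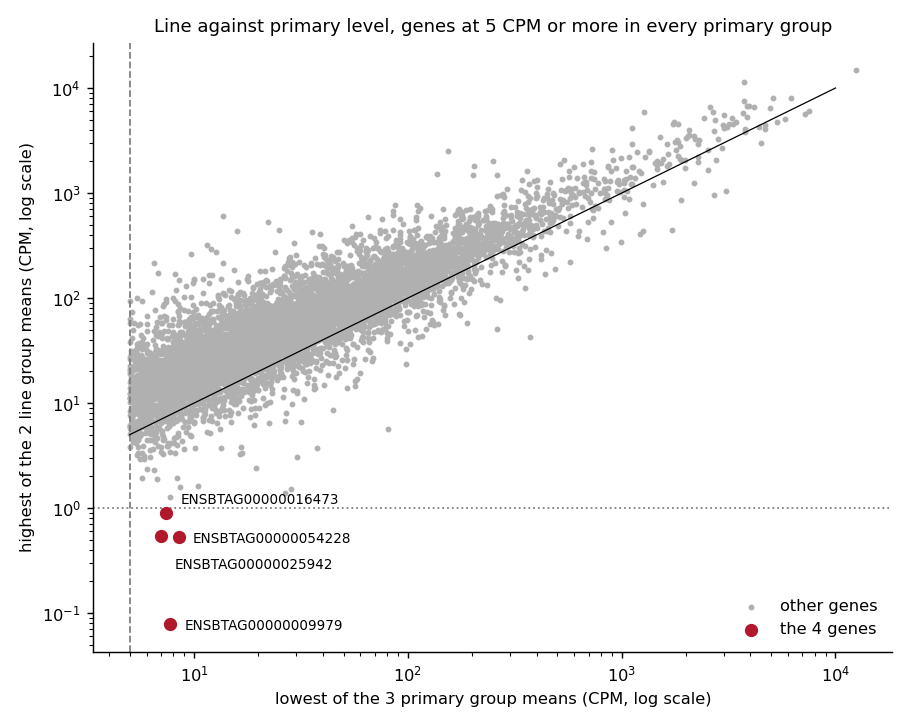
Each point is 1 of the 7122 genes with at least 5 CPM in every primary group, with the lowest of its 3 primary group means on the x axis and the higher of its 2 line means on the y axis, both in CPM on log scales. The diagonal marks equal levels, the dashed line 5 CPM and the dotted line 1 CPM. The 4 genes, in red, lie under the dotted line, and ENSBTAG00000009979 lies lowest.

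All 4 genes were low to middling transcripts in young primary cells. At 12 days their means lay between 7.46 and 8.46 CPM, at ranks 7114 to 7345 of all genes by level. After 50 days they had parted, with 1 gene high in both WJ and BUC cells, 1 high in BUC, 1 highest in WJ and 1 at its 12-day level. Between line and primary cells no library overlapped for any of the 4 genes, a pattern found in 1.61% of the 15997 genes with a count and in 3.03% of the 7122 genes. The rule used this contrast, so nothing is read from that. In an edgeR quasi-likelihood fit of all 23 libraries, 33.1% of the 11489 genes tested were lower in the line, and the 4 genes, picked for this, were among them. Of all genes called there, 52.3% were higher in the line with TMM scaling and 67.6% with library totals. The median log2 fold change of all genes tested, line over primary cells, was 0.05 with TMM scaling and 0.32 with library totals.

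ENSBTAG00000009979 came closest to complete absence from the line. At 165 days it had 0, 0, 0, 1 and 3 counts in 2D-1 to 2D-5, and at 21 days 0, 0, 1, 0 and 0 counts in AM-1 to AM-5 and 0, 0, 2 and 0 in FBS-1 to FBS-4. In primary cells it stood at 16.3, 20.2 and 28.3 CPM in the WJ libraries P10, P15 and P18 and at 28.6, 20.2 and 16 CPM in the BUC libraries of the same P numbers at 50 days, and at 8.04, 8.42 and 6.72 CPM at 12 days. Every primary library was thus above every library of the line, and 10 of the 14 line libraries had no count. In the deepest of these, 2D-3, a count of 0 allows a level of up to 0.222 CPM, with 3 counts as the floor. Pooled over libraries, 7 counts in the line against 734 in primary cells put its level at 0.517% of that in primary cells (exact 95% interval 0.207% to 1.07%). This interval and those that follow cover counting error only.

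ENSBTAG00000054228 kept a trace in most libraries of the line. Its level was 0, 0.266, 0.443, 0.374 and 0.421 CPM in 2D-1 to 2D-5, 0.724, 1.31, 1.14, 0 and 0.148 CPM in AM-1 to AM-5 and 0.668, 0.264, 0.484 and 0 CPM in FBS-1 to FBS-4. In primary cells it was 75.6, 59.9 and 73.9 CPM in WJ and 11, 23 and 19.8 CPM in BUC at 50 days (P10, P15 and P18), and 8.71, 7.81 and 8.85 CPM at 12 days. The pooled level in the line, from 45 counts, was 2.12% of that in primary cells (exact 95% interval 1.54% to 2.85%). Pooling gives the deep 12-day libraries, in which this gene was lowest, the most weight, and with group means weighted equally the share was 1.29%. AM-2 and AM-3 exceeded 1 CPM, and no other library of the line did.

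ENSBTAG00000025942 had a count in 7 of 9 libraries of the line at 21 days and in 3 of 5 at 165 days. It had 0.125, 0.799, 0, 0.0748 and 0 CPM in 2D-1 to 2D-5, 0, 0, 0.127, 0.925 and 0.738 CPM in AM-1 to AM-5 and 1.11, 0.879, 0.323 and 0.724 CPM in FBS-1 to FBS-4. In primary cells it had 12.3, 3.72 and 4.89 CPM in WJ and 55, 75.3 and 48 CPM in BUC at 50 days (P10, P15 and P18), and 7.37, 9.12 and 5.88 CPM at 12 days. Its pooled level in the line, from 39 counts, was 1.81% of that in primary cells (exact 95% interval 1.28% to 2.49%). By age it was 0.519% at 165 days (exact 95% interval 0.168% to 1.21%) and 2.85% at 21 days (1.96% to 4.01%), and 2D-2 held 3 of the 5 counts at 165 days. These shares rest mostly on 50-day BUC cells, which held 841 of the 1169 primary counts. Pooled levels were 58.7 CPM in 50-day BUC, 8.13 CPM in 50-day WJ and 7.28 CPM in 12-day cells. In the line they were 0.104 CPM at 165 days and 0.571 CPM at 21 days, so against WJ or 12-day cells the loss was less deep. ENSBTAG00000025942 was the gene closest to the floor of the rule: its WJ mean of 6.97 CPM rested on the P10 library, and without that library it was no longer selected.

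ENSBTAG00000016473 was the least reduced of the 4. It had 0.501, 0.533, 0.812, 1.27 and 1.37 CPM in 2D-1 to 2D-5, 0, 0, 0.127, 1.70 and 1.48 CPM in AM-1 to AM-5 and 0, 1.23, 0.161 and 1.45 CPM in FBS-1 to FBS-4. In primary cells it was even, at 7.79, 7.85 and 6.52 CPM in WJ and 8.55, 7.08 and 6.93 CPM in BUC at 50 days, and at 8.26, 8.34 and 7.94 CPM at 12 days. The pooled level in the line, from 94 counts, was 11.1% of that in primary cells (exact 95% interval 8.78% to 13.9%). In 6 libraries of the line it was above 1 CPM, the ceiling applied to group means. It was no longer selected without 2D-1 and 2D-2, the libraries that stood apart at 165 days, or with AM-4, AM-5, FBS-2 and FBS-4 as the only 21-day libraries, where its pooled level was 1.43 CPM.

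**Figure D2:**
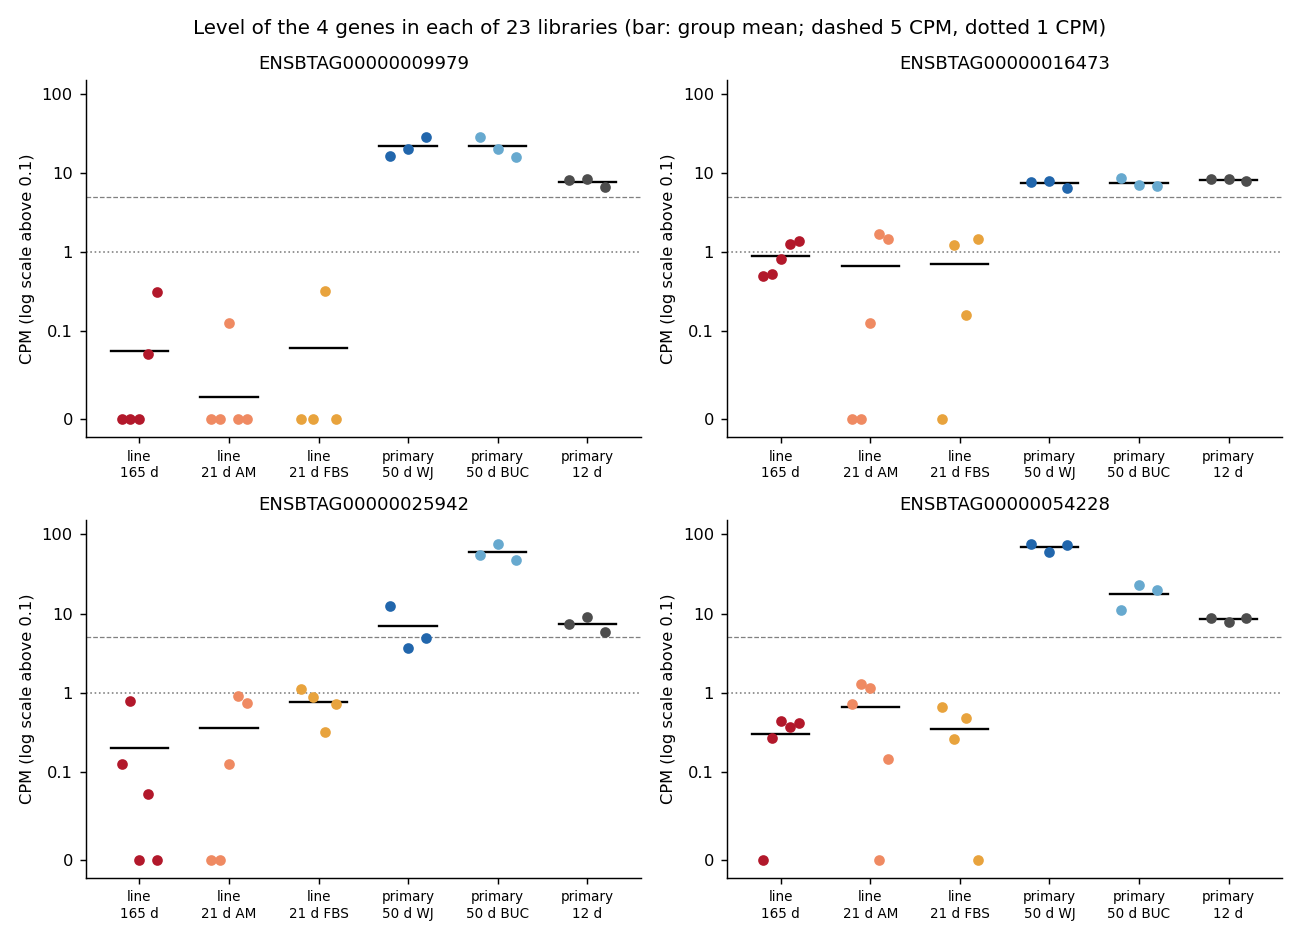
Each panel shows 1 gene and each point 1 library, with CPM on the y axis (log scale above 0.1, linear below) and the groups on the x axis. Bars are group means, the dashed line is 5 CPM and the dotted line 1 CPM. Every library of the line lies below every primary library in all 4 panels. At 50 days ENSBTAG00000025942 is high in BUC and ENSBTAG00000054228 in WJ.

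The rule set a floor in each primary group and used no contrast between them, so the primary cells were compared by test. The floor still bears on the direction of change. The 12-day means of the 4 genes, 7.46 to 8.46 CPM, lay not far above it, so a gene that fell far would have left the set. No ceiling held a rise, so nothing is read from genes rising rather than falling. The first comparison was of 50 against 12 days, in an edgeR quasi-likelihood fit of the 9 primary libraries with Benjamini-Hochberg adjustment over 9820 genes, all 4 members included. The P numbers were 3, 3 and 4 at 12 days and 10, 15 and 18 at 50 days. What they stand for and time cannot be told apart here. Of the 4 genes 3 rose, where 30.4% of the genes tested rose and 60.1% changed. The genes tested were not held to the floor, so nothing is read from setting 3 of 4 beside these shares. ENSBTAG00000054228 averaged 69.8 ± 8.63 CPM in WJ and 17.9 ± 6.22 CPM in BUC cells at 50 days, against 8.46 ± 0.564 CPM at 12 days (SD, n = 3 each). Its log2 fold change over both tags was 2.31 (standard error 0.20, edgeR adjusted p = 1.89e-06), and each of the 6 older libraries lay above the 12-day range. The share of all genes for which this holds was not computed.

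ENSBTAG00000009979 averaged 21.6 ± 6.08 CPM in WJ and 21.6 ± 6.39 CPM in BUC cells at 50 days, against 7.73 ± 0.896 CPM at 12 days (SD, n = 3 each). Its log2 fold change was 1.69 (standard error 0.22, edgeR adjusted p = 4.43e-05), again with 6 of 6 libraries at 50 days above the 12-day range. Here too the share of all genes with that pattern was not computed, so nothing is read from it. ENSBTAG00000025942 averaged 6.97 ± 4.66 CPM in WJ and 59.4 ± 14.2 CPM in BUC cells at 50 days, against 7.46 ± 1.63 CPM at 12 days (SD, n = 3 each). Its combined log2 fold change was 1.76 (standard error 0.28, edgeR adjusted p = 0.000188), but only 4 of 6 libraries at 50 days, the 3 BUC ones and WJ P10, were above the 12-day range. ENSBTAG00000016473 averaged 7.38 ± 0.749 CPM in WJ and 7.52 ± 0.895 CPM in BUC cells at 50 days, against 8.18 ± 0.209 CPM at 12 days (SD, n = 3 each). Its log2 fold change of 0.10 did not pass (edgeR adjusted p = 0.567, 95% interval -0.21 to 0.41), and it was -0.13 with library totals as the scale.

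The scale matters for the background of this comparison. With TMM scaling 50.7% of the genes called at 50 days were higher, and with library totals 34.8%, and the median log2 fold change of all genes was 0.01 with TMM and -0.22 with totals. The 3 rising genes rose on both scales, by 1.46 to 2.07 with library totals.

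Set against the same 12-day libraries one tag at a time, 2 genes rose in WJ and 3 in BUC, where 25.1% and 31.6% of genes rose. Those shares cover genes not held to the floor of the rule, so nothing is read from that either. ENSBTAG00000054228 rose by 3.24 in WJ (standard error 0.22, edgeR adjusted p = 7.81e-07) and by 1.37 in BUC (0.23, adjusted p = 0.000263). ENSBTAG00000009979 rose by 1.65 in WJ (0.26, adjusted p = 0.000292) and by 1.73 in BUC (0.24, adjusted p = 7.22e-05). ENSBTAG00000025942 rose by 3.26 in BUC (0.28, adjusted p = 1.41e-06). In WJ its log2 fold change was 0.26 with a 95% interval from -0.53 to 1.05 (edgeR adjusted p = 0.584), and -0.59 without the P10 library. Both contrasts share the 12-day libraries, of which the first in the values above was named BUC and the others WJ, so what differs between WJ and BUC at any age and what changes with time cannot be told apart there. At 12 days that BUC library, with 7.37 CPM of ENSBTAG00000025942 and 8.71 CPM of ENSBTAG00000054228, lay between the WJ libraries in both genes, and 1 library allows no test.

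WJ and BUC cells at 50 days differed in 2 of the 4 genes, in opposite directions, where 31.5% of the genes tested differed, 14.5% higher and 17.0% lower in WJ. Here too the genes tested were not held to the floor of the rule. ENSBTAG00000025942 was lower in WJ, with a log2 fold change of -3.01 and a standard error of 0.33 (edgeR adjusted p = 3.73e-05), and the 3 WJ libraries lay below the 3 BUC libraries. ENSBTAG00000054228 was higher in WJ, with a log2 fold change of 1.88 and a standard error of 0.22 (edgeR adjusted p = 6.52e-05), and the libraries again did not overlap. The share of all genes without overlap between these libraries was not computed. ENSBTAG00000009979 had a log2 fold change of -0.08 (95% interval -0.63 to 0.47, edgeR adjusted p = 0.847) and ENSBTAG00000016473 one of -0.07 (95% interval -0.62 to 0.48, edgeR adjusted p = 0.884). Their sign turned when single libraries were left out.

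**Figure D3:**
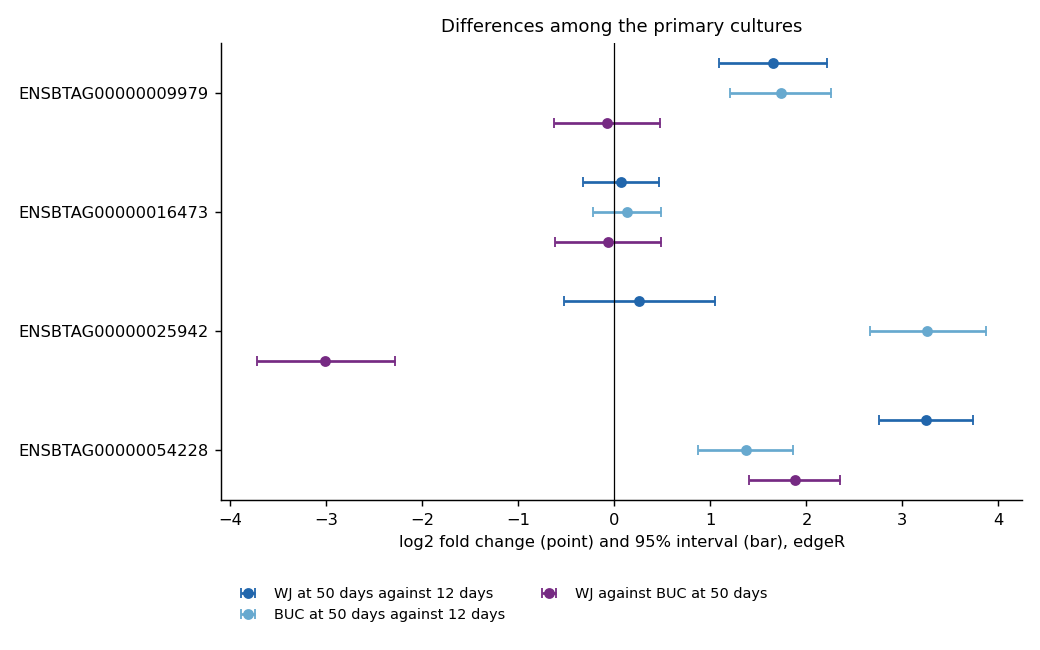
Points are log2 fold changes and bars 95% intervals from the edgeR fit of the 9 primary libraries, with 3 contrasts for each of the 4 genes. ENSBTAG00000009979 rose about equally in WJ and BUC, at 1.65 and 1.73, all 3 intervals of ENSBTAG00000016473 include 0, and ENSBTAG00000025942 and ENSBTAG00000054228 lie on opposite sides of 0 for WJ against BUC, at -3.01 and 1.88.

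These tests give each gene its own order of levels in primary cells. ENSBTAG00000054228 was highest in 50-day WJ, then 50-day BUC, then 12-day cells, with each step past the test. ENSBTAG00000025942 was highest in 50-day BUC, and 12-day cells and 50-day WJ, next in order, did not differ beyond their spread. ENSBTAG00000009979 was higher in both kinds of 50-day cells than at 12 days, with WJ and BUC not told apart. For ENSBTAG00000016473 no pair of groups was told apart. The line was made from WJ cells, in which ENSBTAG00000054228 reached rank 2232 of 16094 genes by mean level at 50 days and ENSBTAG00000025942 rank 7302. At 12 days, with 2 of the 3 libraries named WJ, their ranks were 7114 and 7345. The ranks at 50 days are thus not taken as those of the founding cells.

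Within the line, none of the 4 genes passed the low-count filter, so the comparisons there were made without it. The rule held each gene under 1 CPM at both ages, so this contrast runs on values the rule used and few counts are left in it: the results below are descriptions, and a gene that did not pass is not shown to be stable. For 165 against 21 days 0 of 4 genes passed with edgeR, 0 had an unadjusted p under 0.05, and 0 of the 3 to which DESeq2 gave an adjusted p passed, and nothing is read from setting this beside the 42.7% of the 15884 genes fitted without the filter that were called. With the filter, 47.8% of the calls were higher at 165 days with TMM scaling and 28.0% with library totals. ENSBTAG00000025942 was nearest, with a mean of 0.200 ± 0.339 CPM at 165 days (SD, n = 5) and 0.537 ± 0.428 CPM at 21 days (SD, n = 9) and a log2 fold change of -1.82 (standard error 0.88, edgeR adjusted p = 0.11). In a fit of all 23 libraries its adjusted p was 0.0484 at a log2 fold change of -1.87, and without 2D-2 it was 0.0186 at -2.94. ENSBTAG00000016473 had 0.897 ± 0.405 CPM at 165 days and 0.682 ± 0.752 CPM at 21 days, and a log2 fold change of 0.61 (95% interval -0.80 to 2.03). The log2 fold change of ENSBTAG00000009979 was 0.85 (standard error 1.01, edgeR adjusted p = 0.542) and that of ENSBTAG00000054228 was -0.24 (standard error 0.73, edgeR adjusted p = 0.828). The name 2D went with all 165-day libraries and no 21-day one, so what it stands for and time cannot be told apart.

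AM and FBS libraries of the 21-day line were not told apart in any of the 4 genes at this depth, on values that the rule held low in the same way. With edgeR and no filter 0 of 4 passed and 0 had an unadjusted p under 0.05, DESeq2 gave none of them an adjusted p, and 0.0755% of all genes were called. The log2 fold changes of AM over FBS ran from -0.93 for ENSBTAG00000025942 to 0.99 for ENSBTAG00000054228, with standard errors of 0.85 and 0.86. ENSBTAG00000016473, at -0.15, had a 95% interval from -1.96 to 1.66.

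The counts left in the 21-day line differed between the sets of libraries that stood apart on the first axis. ENSBTAG00000016473 had 0, 0, 1, 0 and 1 counts in AM-1, AM-2, AM-3, FBS-1 and FBS-3, and 11, 10, 14 and 10 in AM-4, AM-5, FBS-2 and FBS-4. These counts did not overlap. ENSBTAG00000054228 leaned the other way, with 3, 7, 9, 3 and 3 counts in the first 5 libraries and 0, 1, 3 and 0 in the other 4. ENSBTAG00000025942 had 0, 0, 1, 5 and 2 counts in the first 5 and 6, 5, 10 and 5 in the other 4. ENSBTAG00000009979 had 3 counts in the first 5 and 0 in the other 4, too few to place it. At 165 days, where 2D-1 and 2D-2 were the shallower libraries, ENSBTAG00000016473 had 0.501 and 0.533 CPM in them and 0.812 to 1.37 CPM in the other 3. The 4 libraries together held 31542988 counts and the 5 together 28053341, so the 4 were deeper per library. In CPM, ENSBTAG00000016473 ranged over 1.23 to 1.70 in the 4 and 0 to 0.161 in the 5, and ENSBTAG00000054228 over 0 to 0.264 in the 4 and 0.484 to 1.31 in the 5, with no overlap in either gene. ENSBTAG00000025942 ranged over 0.724 to 0.925 CPM in the 4 and 0 to 1.11 CPM in the 5, which overlap. The sets were found from these same libraries, so no test was made between them. The share of all genes without overlap between the sets was not computed, so the gap is not shown to be particular to these genes.

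**Figure D4:**
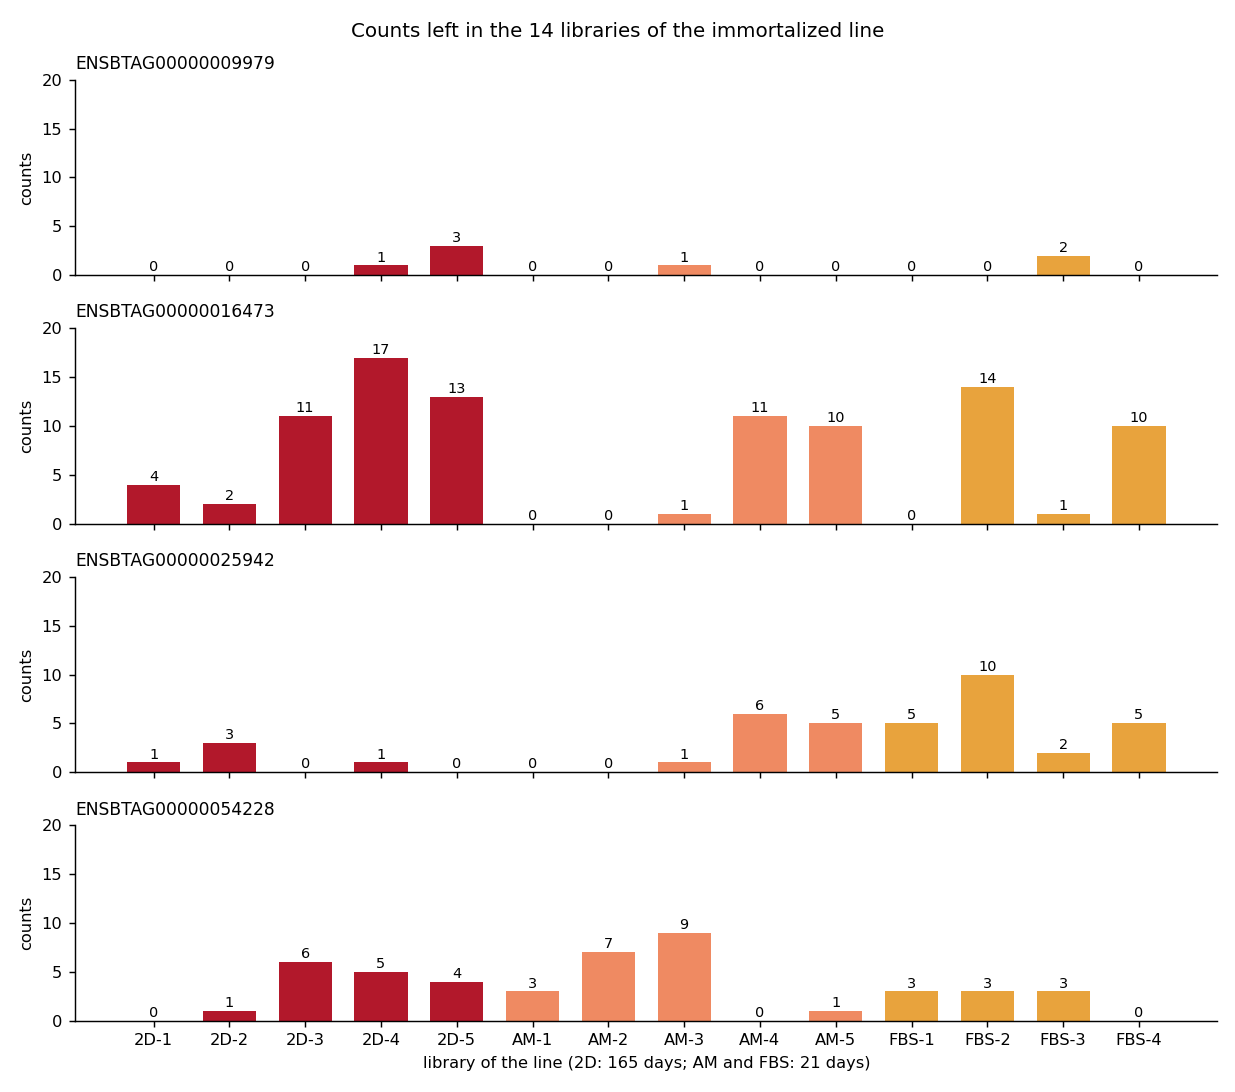
Bars are the counts of each gene, 1 panel per gene, in the 14 libraries of the line, with 2D libraries (165 days) on the left and AM and FBS libraries (21 days) to their right. ENSBTAG00000009979 has at most 3 counts in a library. ENSBTAG00000016473 has 10 to 14 counts in AM-4, AM-5, FBS-2 and FBS-4 and at most 1 in the other 21-day libraries, and ENSBTAG00000054228 has its highest count, 9, in AM-3.

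The line and the primary cells were not sampled at the same times, and the line comes from WJ cells only, so immortalization, time in culture and the founding cells cannot be told apart in the gap between them.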

How the data were processed

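The authors deposited 1 table of raw counts per gene, whole numbers that are not normalized, with 16094 Ensembl gene IDs and 23 columns matched to samples by their names. The tools named, per the submitters' processing notes, are cutadapt, STAR, HTSeq and DESeq, and the build is ARS-UCD1.2. Not given in the sources used here are versions, annotation release, strand, use of molecular identifiers and filters. Counts are independent molecules only if identifiers were collapsed, and without strand overlapping genes or near-identical copies may share counts. Of the 16094 IDs 0 matched a symbol in the RefSeq table used, so the 30 gene lists planned, cell type markers included, were not run, nor the parts of the rule for named genes that need a symbol. The 4 genes are named as the subject.

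CPM used column totals. Tests were edgeR 4.0.16 quasi-likelihood fits in R 4.3.3 with TMM, filterByExpr and Benjamini-Hochberg adjustment at 0.05, on the 9 primary or the 14 line libraries, and on all 23 for line against primary cells. Standard errors follow from the F statistic, or from the p-value where the Poisson bound of edgeR set it. The rule for named genes took the 12 most abundant members, the 5 with the largest change in each direction and the nearest genes at each threshold. Alternatives were DESeq2 1.42.0, RLE factors, library totals, no filter, all 23 libraries, a block and leaving out each library. Code was tested on simulated data. No pair of libraries of the same group agreed within counting noise (lowest chi-square per degree of freedom 2.85). Pairs across groups were not checked. The genes, lists and tests were chosen with earlier results of these data known.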

Additional observations from a re-analysis of the deposited data

Results flagged for a closer look

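Single libraries stood apart from their group in 4 of the 12 groups of 4 or 5 line libraries examined (the highest or lowest value's gap to its neighbour, against the range). Chance flags about 1 in 20 groups of continuous values, a rate that does not apply here: among counts near 0 a single library with a count is always marked, so the number of marks carries no meaning. ENSBTAG00000009979 stood at 0.315 CPM in 2D-5 of the 165-day line, 0.127 CPM in AM-3 and 0.323 CPM in FBS-3 of the 21-day line, which are 3, 1 and 2 counts beside libraries mostly at 0. ENSBTAG00000025942 stood at 0.799 CPM, 3 counts, in 2D-2 of the 165-day line.

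The level at 50 days differed between WJ and BUC for 2 genes. WJ and BUC were set against the same 12-day libraries, so a difference in the change with time was not tested. The difference at 50 days, WJ minus BUC on the log2 scale, was -3.01 for ENSBTAG00000025942 (edgeR adjusted p = 3.73e-05) and 1.88 for ENSBTAG00000054228 (edgeR adjusted p = 6.52e-05). In both genes every library of a tag lay on 1 side of every library of the other. How many of all genes part the libraries in this way was not computed, so nothing further is read from it.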

How the results depend on the processing

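The calls for the 4 genes in primary cells, 3 for 50 against 12 days and 2 for WJ against BUC, stood under every alternative run. With thresholds of 10 and 0.5 CPM the rule found 0 genes. With TMM-scaled library sizes it found the same 4, with group medians 3, without single libraries 3 to 4 (3 without WJ P10) and without 2D-1 and 2D-2 together 3. ENSBTAG00000025942 dropped out with medians and without WJ P10, and ENSBTAG00000016473 without 2D-1 and 2D-2 and with AM-4, AM-5, FBS-2 and FBS-4 as the only 21-day libraries, where the rule found 4 genes, 3 of them shared. With the other 21-day libraries alone it found the same 4. All genes called numbered 5081 to 6119 for 50 against 12 days, 2544 to 3110 for WJ against BUC, 5909 to 6436 for 165 against 21 days and 7652 to 8087 for line against primary cells when single libraries were left out. For AM against FBS, with 32 genes called, they were 8 to 43, with DESeq2 144, with library totals 21, without a filter 12 and with all 23 libraries 64. The cause was not tested.

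The P number as a replicate block in the 6 libraries at 50 days left 2037 genes called in place of 3098 (2201 in those libraries with no block), and the same 2 of the 4 genes. Deviations from the group mean of each gene, in log2 CPM, correlated at 0.05, -0.11 and 0.13 between same-numbered WJ and BUC libraries. The numbers were therefore not taken as pairs. For AM against FBS the replicate block left 0 genes with edgeR (1151 at an unadjusted p under 0.05), and such deviations of same-numbered libraries there correlated at -0.52 to 0.52. For 165 against 21 days 6350 genes were called with the block and 6431 with none; their overlap was not computed.

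Signs turned only where no test was passed. ENSBTAG00000016473 was at -0.13 for 50 against 12 days with library totals (-0.13 in WJ and in BUC alone) and -0.02 with all 23 libraries (-0.05 in WJ), and for WJ against BUC at 0.00 with library totals and 0.01 without BUC P10 (-0.10 to 0.01 without single libraries). ENSBTAG00000009979 was at 0.13 for WJ against BUC without BUC P10 or without WJ P10 (-0.32 to 0.13), and ENSBTAG00000025942 for WJ against 12 days at -0.59 without WJ P10 (-0.59 to 0.56). For 165 against 21 days ENSBTAG00000009979 was at -0.45 without 2D-5 (-0.45 to 2.02), and ENSBTAG00000054228 at 0.03 without 2D-1 (-0.44 to 0.03) and at 0.10 without 2D-1 and 2D-2 together, where ENSBTAG00000025942 was at -3.49 (edgeR adjusted p = 0.0206). In 2D-3 to 2D-5, the 165-day libraries left in that fit, ENSBTAG00000025942 had 1 count. The rule held it low at both ages, so nothing is read from that p-value. The alternatives for 1 tag against 12 days, for the 4 genes in the line and for sets of libraries were chosen after seeing the data. The floor of 3 counts is 0.222 CPM in the deepest library of the line and 1.63 CPM in the shallowest primary library.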
